A study of Homo sapiens with 8 samples.

Results

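The response to all-trans retinoic acid (ATRA) was compared between KDM3B-knockdown NB4 cells and control NB4 cells. For each gene, the log2 change with ATRA in the control cells was subtracted from that in the knockdown cells, and the result is called the difference in response. It was formed for the names listed in all 8 count files, 37526 of the 75553 names in any file. Of these, 13528 passed the low-count filter and were tested, and 23998 did not. A gene was called when its difference was at least 1.5-fold with an unadjusted P under 0.05, the thresholds of the study, in the edgeR quasi-likelihood F test over all 8 libraries.

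NB4 is a cell line from acute promyelocytic leukemia (APL) that carries the PML/RARα fusion. The 4 groups held 2 libraries each. The shNC and shKDM3B groups were NB4 cells stably transduced with a pLVX-shRNA2-puro vector, as control or with an shRNA against KDM3B, without ATRA. The shNC_ATRA and shKDM3B_ATRA groups were such cells given 1 µM ATRA. The labels name 24 and 48 h of ATRA for the series without assigning a time to a library. The control is an empty vector in the labels and a scrambled shRNA in the methods of the study. Of the 2 KDM3B target sequences given there, the one used for RNA sequencing is not named, so the knockdown is treated as 1 shRNA. The replicates are not said to come from separate transductions, and P-values measure the spread between these samples only. An exact permutation test of 2 against 2 libraries cannot go below a two-sided p of 0.333, and none is given.

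In APL, PML/RARα holds retinoid target genes and PU.1 target genes in a repressed state, and ATRA at pharmacological doses releases this block and drives promyelocytes toward neutrophils. Genes of neutrophil function then rise, such as those of the NADPH oxidase, the integrin CD11b and the chemotactic receptors, while promyelocyte granule genes such as MPO and the MYC program fall. KDM3B is a demethylase of mono- and dimethylated lysine 9 of histone H3. A response can differ between the 2 kinds of cells because the levels before ATRA differ, because the levels with ATRA differ, or through both, and the genes described in detail are therefore given with their levels in the libraries. Levels are given as CPM (counts of a gene scaled to a common library size), scaled with the trimmed mean of M-values (TMM), and are not corrected for gene length. Changes and differences are given on the log2 scale, with the standard error (SE) after ±.

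Library depth on genes ran from 9708739 to 33017787 read pairs. The libraries did not all behave alike. Pairs outside genes made up 8.49% to 9.62% of the total in the untreated libraries and 9.36% in shNC_ATRA replicate 1, but 50.02% in shNC_ATRA replicate 2 and 51.45% and 51.05% in both shKDM3B_ATRA libraries. On the log2 CPM scale, shNC_ATRA replicate 2 correlated with the shKDM3B_ATRA libraries at Pearson r of 0.965 and 0.975 across genes, against 0.898 with its own replicate. For a number of genes the difference is therefore also given with shNC_ATRA replicate 1 alone and with shNC_ATRA replicate 2 alone. These values are differences of mean log2 CPM with a prior count of 2, so that the fitted difference need not lie between them, and they share the other 6 libraries. The sign of the difference was the same with either shNC_ATRA library in 8333 of the 13528 genes (61.6%). In this share all untreated libraries were like shNC_ATRA replicate 1. Which of the 2 kinds is the usual one for ATRA-treated control cells cannot be told from 2 libraries. Both shKDM3B_ATRA libraries had about as many pairs outside genes as inside, no untreated library did, and shNC_ATRA held 1 library of each kind, so a technical difference in library preparation or counting may be part of every difference in response given here. Its part was not tested. The files of the 4 untreated libraries list 56470 names each and those of the 4 treated libraries 56609, so the names counted differ between untreated and treated libraries. An ATRA response and a change of the counted annotation cannot be told apart within 1 kind of cell, and names in only some of the files were not tested. The lists are as long in shNC as in shKDM3B files of the same state.

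KDM3B, the targeted gene, was at 187 and 188 CPM in shNC, 76.3 and 86.2 CPM in shKDM3B, 196 and 121 CPM in shNC_ATRA and 52.5 and 57.4 CPM in shKDM3B_ATRA. Every knockdown library lay below every control library, with and without ATRA. Its own difference in response was -0.33 ± 0.32 (unadjusted P = 0.337), and the shKDM3B minus shNC change was -1.21 without and -1.53 with ATRA. The erythroid markers summed to 0.737 CPM or less in each library, and HBA1, HBA2, HBB and HBG1 had 0 counts throughout. The promyelocyte markers, led by MPO, summed to 4450 and 5530 CPM in shNC and to 8550 and 9720 CPM in shKDM3B. With ATRA they summed to 844 and 707 CPM in shNC_ATRA and to 3220 and 2320 CPM in shKDM3B_ATRA. These sums were higher in the knockdown libraries in both states, but MPO made up most of each. With ATRA, MPO alone stood at 729.6 and 616 CPM in shNC_ATRA and 3128 and 2220 CPM in shKDM3B_ATRA. Among other markers with ATRA, the group means of CTSG and CD33 were lower in the knockdown. Those of PRTN3 and AZU1, under 1 CPM, were higher. The sums therefore follow MPO and do not speak for the other markers. Monocyte and macrophage markers summed to 38.3 and 39.9 CPM in shNC, 18.1 and 31 CPM in shKDM3B, 117 and 71.7 CPM in shNC_ATRA and 16.5 and 28.9 CPM in shKDM3B_ATRA, with CD163 at 0. Lymphocyte markers summed to 52.2 and 40.2 CPM in shNC, 23.6 and 29 CPM in shKDM3B, 55.1 and 74.4 CPM in shNC_ATRA and 28.5 and 39.5 CPM in shKDM3B_ATRA, with MS4A1 at 0. Both of these sums were lower in the knockdown libraries in each state. They rest on few genes, led by FCN1 and NKG7. Only 3 of the 7 monocyte and macrophage markers and 4 of the 8 lymphocyte markers passed 1 CPM in any library. The epithelial markers summed to 17.9 to 25.2 CPM over all libraries, with KRT19 and CDH1 at 0. The part of a shift between cell states in the differences that follow was not tested, and in bulk RNA fewer cells of a type and less RNA per cell cannot be told apart.

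Of the rises and falls of the control cells that both shNC_ATRA libraries showed, 1543 of 1942 rises (79.5%) and 1257 of 1581 falls (79.5%) were also called in the same direction in the knockdown cells. In shNC cells 2282 genes rose with ATRA (16.9% of those tested) and 1581 fell (11.7%). In shKDM3B cells 2752 rose (20.3%) and 2281 fell (16.9%). The difference between these responses was called for 540 of 13528 genes (3.99%), of which 172 (1.27%) were higher and 368 (2.72%) lower in shKDM3B cells. All 540 had the same sign with each shNC_ATRA library, so the shares called with that condition were also 3.99%, 1.27% and 2.72%. An unadjusted P under 0.05 at any size was found for 607 genes (4.49%). No gene passed a Benjamini-Hochberg adjusted p of 0.05 in the edgeR quasi-likelihood test, 0 of 13528 (0%), and the lowest adjusted p was 0.757. DESeq2 gave 25 genes (0.185%) at that threshold. With library size alone in place of TMM, 234 genes were called higher and 279 lower, so the size of the excess of lower differences depended on the scaling. The counts also depended on single libraries. A fit without 1 library leaves a group of 1 library, so its spread is taken from the other groups. Over the 8 fits that leave out 1 library, between 121 and 1168 genes were called higher and between 157 and 1264 lower. Without shNC_ATRA replicate 2 the counts were 1168 higher and 1264 lower, and without shNC_ATRA replicate 1 they were 388 and 408. The lower calls numbered 157 without shKDM3B_ATRA replicate 1, 185 without shKDM3B replicate 2 and 224 without shNC replicate 1.

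The responders were then divided by the size of the difference. A responder was a gene called in shNC cells with both shNC_ATRA libraries on one side of the shNC mean, and 3523 genes qualified. A further 340 called rises had the shNC_ATRA libraries on different sides and were left out. A response counted as blunted or enhanced when the difference was at least 1.5-fold against or with it, of one sign with each shNC_ATRA library. It counted as unresolved when the difference was that large but its sign depended on the library, and as kept when the difference was under 1.5-fold, whatever its sign with each library. Kept therefore says that the fitted difference was small, not that the responses were shown to be equal. These classes are cut from the difference itself and are given as a description, without a test. A group with at most 3 counts in each library, which leaves the size uncertain, was present in 78 of the blunted, 64 of the kept and 101 of the enhanced rises, in 71, 54 and 55 of these falls, and in 182 gained rises and 71 gained falls, defined next.

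Among the 1942 rises, 1218 (62.7%) were kept, 361 (18.6%) blunted, 273 (14.1%) enhanced and 90 (4.63%) unresolved. Of the kept rises 1010 were called in shKDM3B cells too, and 541 had a difference whose sign depended on the library. The 1581 falls held 1084 kept (68.6%), 230 blunted (14.5%), 239 enhanced (15.1%) and 28 unresolved (1.77%), and 906 of the kept falls were called in shKDM3B cells too. Over both directions, 65.3% of responses were kept, 16.8% blunted and 14.5% enhanced. The shNC response that chose the responders enters the difference with a minus sign. Spread in the control libraries thus pushes chosen genes toward blunted by construction. With responders taken by the mean of both responses, 10.1% of rises were blunted and 28.3% enhanced, and 8.38% and 24.6% of falls. Nothing is read from the balance of blunted and enhanced. The class counts moved with the libraries and with how responders were chosen. In a fit without a shNC_ATRA library the condition on both of these libraries cannot apply. No response can then be unresolved, so such counts are not on the same rule as the main ones. Over the fits that leave out 1 library, blunted rises numbered 279 to 686, kept rises 897 to 1934 and enhanced rises 136 to 475. The falls held 221 to 566 blunted, 803 to 1750 kept and 139 to 271 enhanced. Without shNC_ATRA replicate 1 there were 686 blunted, 1934 kept and 475 enhanced rises and 566 blunted and 1750 kept falls, and without shNC_ATRA replicate 2 there were 561 blunted rises and 467 blunted falls. Enhanced rises numbered 414 without shKDM3B replicate 1, 136 without shNC replicate 1 and 171 without shNC replicate 2. Enhanced falls numbered 139 without shKDM3B replicate 2. With responders taken by the mean response, 816 rises were enhanced, and 1385 when they were taken from shNC_ATRA replicate 2 and compared through replicate 1. For comparison, a difference of at least 1.5-fold of one sign with each shNC_ATRA library was found in 2990 of all 13528 genes (22.1%). The median difference was -0.07 among rises and -0.04 among falls, against -0.02 over all genes. With library size alone in place of TMM it was -0.013 among rises and 0.038 among falls, so the sign among falls depended on the scaling. Among rises the median was -3.17e-05 with shNC_ATRA replicate 1 alone and -0.18 with replicate 2 alone, and among falls it was -0.16 and 0.09, so that the sign of the median among falls turned with the library. A further 461 rises and 445 falls were gained, meaning that they were called in shKDM3B cells and not in shNC cells and that the responses differed by at least 1.5-fold.

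**Figure D1:**
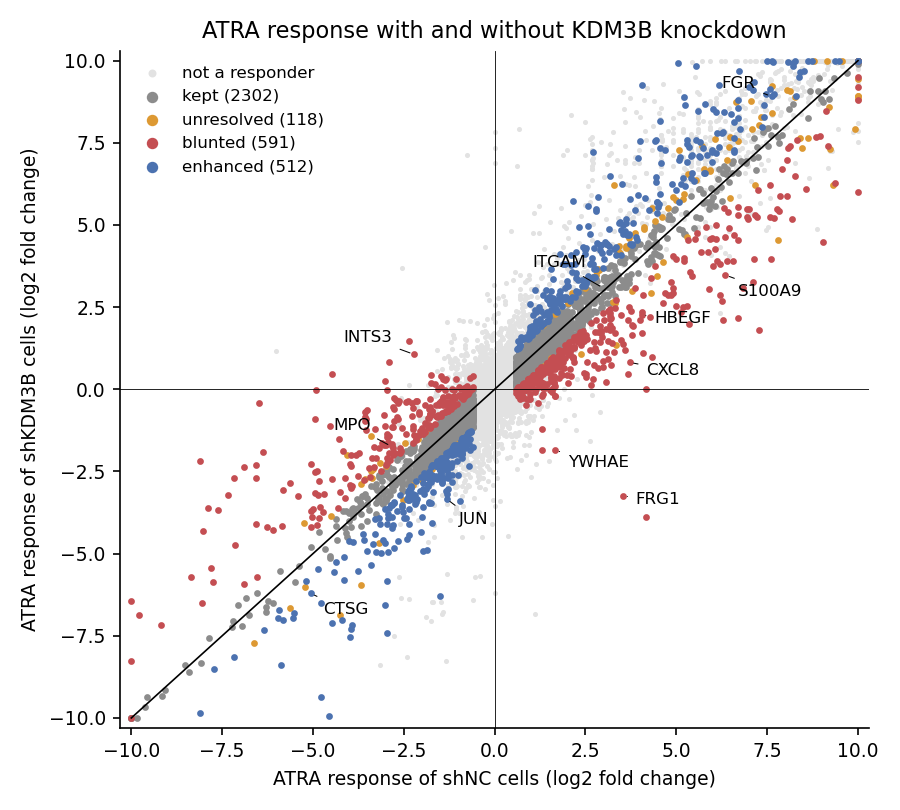
Log2 ATRA response of shKDM3B cells (vertical) against that of shNC cells (horizontal), 1 point per gene tested, coloured by class, with values beyond ±10 drawn at the edge and the line of equal responses in black. Most responders lie along the line, S100A9, HBEGF and CXCL8 lie below it among the rises, and MPO and INTS3 lie above it among the falls.

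**Figure D2:**
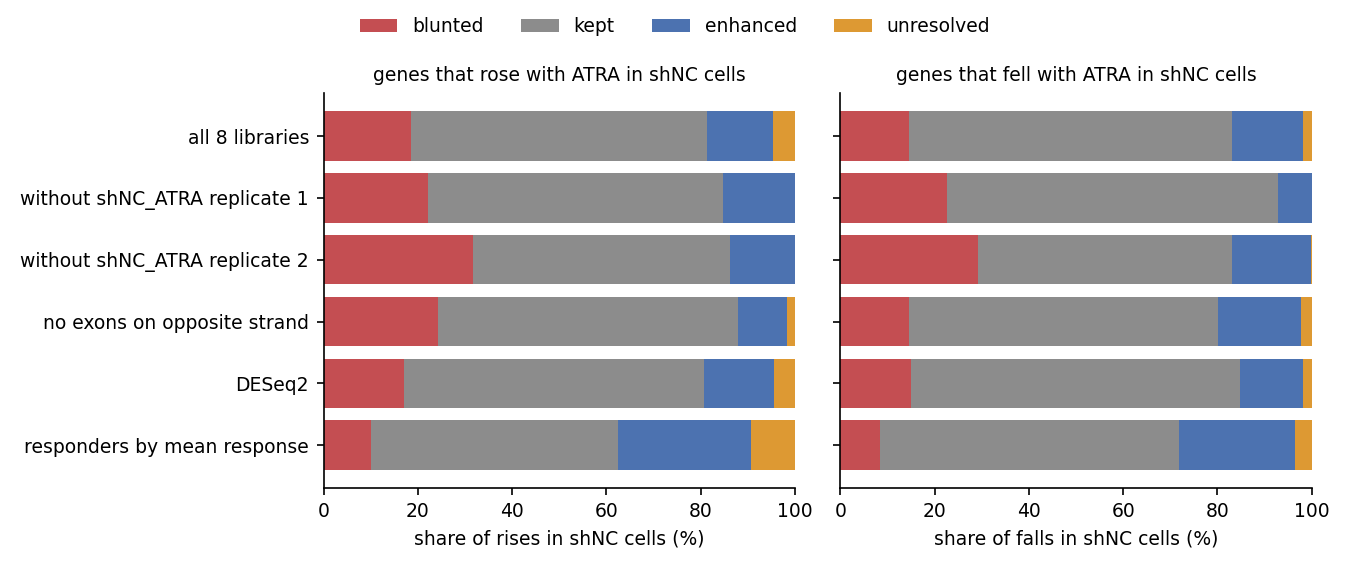
Shares of blunted, kept, enhanced and unresolved responses among rises (left) and falls (right) of shNC cells, in percent, for all 8 libraries and 5 other settings. Kept responses are the largest class in each bar, and blunted rises make up 18.6% with all libraries. In the bars without a shNC_ATRA library no response can be unresolved, since the condition on both libraries does not apply.

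The threshold cuts through a continuous distribution. Just inside the blunted rises lay SNAI3 with a difference of -0.5904, HDHD3 with -0.5928 and ITGAL with -0.5931, and just outside lay SAMSN1 with -0.5837, PSTPIP2 with -0.582 and EBP with -0.5803. Among falls, ZBTB44 with 0.5862 was just inside and PTPN13 with 0.5844 just outside.

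S100A9 and S100A8 rose much less with KDM3B knocked down. They encode the subunits of calprotectin, the main cytosolic protein of neutrophils. S100A9 was at 8.84 and 3.69 CPM in shNC, 479.5 and 538 CPM in shNC_ATRA, 3.24 and 4.08 CPM in shKDM3B and 34.8 and 47.3 CPM in shKDM3B_ATRA. The untreated groups overlapped, and both shKDM3B_ATRA libraries lay far below both shNC_ATRA libraries. The response was 6.35 ± 0.45 in shNC cells and 3.48 ± 0.40 in shKDM3B cells, a difference of -2.88 ± 0.53 (unadjusted P = 0.000926, edgeR quasi-likelihood adjusted p = 0.965). It was -2.92 with shNC_ATRA replicate 1 alone and -3.09 with replicate 2 alone.

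S100A8 went from 1.46 and 0.839 to 132 and 152 CPM in shNC cells and from 0.462 and 0.338 to 10.6 and 18.1 CPM in shKDM3B cells. Here the knockdown libraries were the lower ones before ATRA as well as after it, and the difference was -1.78 ± 0.56 (unadjusted P = 0.0153), not called without shKDM3B replicate 1. Of the 8 S100 genes tested, 0 were called higher and 2 lower, where 1.27% and 2.72% of all genes were, the difference was negative in 7, and the median was -0.45. S100A11, another calcium-binding member, had a difference of -0.36 ± 0.27, and S100P one of 0.08 ± 0.48, neither called.

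CYP26A1, DHRS3 and DHRS9, which act on retinoids, had blunted rises. Of 16 retinoid genes tested, 2 were called higher and 4 lower in shKDM3B cells, against 1.27% and 2.72% of all genes, with a median of -0.35. The 4 were these 3 and RXRA, whose fall was enhanced. The 2 called higher, RARRES3 and ALDH1A2, had 3 or fewer counts in each untreated knockdown library. CYP26A1, the cytochrome that degrades retinoic acid and a classical direct target of retinoid receptors, rose from 0.1004 and 0.336 to 9.99 and 8.67 CPM in shNC cells. In shKDM3B cells it went from 0.3596 and 0.276 to 0.421 and 2.11 CPM, so the treated groups did not overlap and the untreated ones did. Its difference was -3.35 ± 1.10 (unadjusted P = 0.0182), not called without shNC replicate 1 or shKDM3B replicate 1.

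DHRS3, which reduces retinaldehyde back to retinol, rose from 2.41 and 2.14 to 144 and 164 CPM in shNC cells and from 3.596 and 4.17 to 78.6 and 108 CPM in shKDM3B cells. Its knockdown libraries started higher and ended lower. The difference was -1.501 ± 0.29 (unadjusted P = 0.00115), with -1.39 and -1.57 for the shNC_ATRA libraries taken alone. DHRS9, a retinol dehydrogenase, reached a like level in both treated groups, 199 and 279 CPM in shNC_ATRA and 214 and 228 CPM in shKDM3B_ATRA, from 23.5 and 33.9 CPM in shNC and 59.3 and 64.95 CPM in shKDM3B. Its difference of -1.23 ± 0.32 (unadjusted P = 0.005896) arose from the untreated levels, which did not overlap.

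TGM2, the tissue transglutaminase strongly induced by ATRA in NB4 cells, had 0 and 0 counts in shNC and 0 and 1 in shKDM3B. With ATRA it stood at 5836 and 5142 CPM in shNC cells and 2268 and 2542 CPM in shKDM3B cells, without overlap. With so few untreated counts no size can be given for its difference in response. RXRA, the obligate partner of the retinoic acid receptors, fell further in shKDM3B cells, from 141 and 217 to 28.1 and 37.3 CPM, than in shNC cells, from 125 and 176 to 58.1 and 50.6 CPM. The difference was -0.99 ± 0.38 (unadjusted P = 0.0356), not called without shNC replicate 1, shKDM3B replicate 2 or shKDM3B_ATRA replicate 1. RARA, which encodes the receptor itself, had a difference of -0.35 ± 0.39 (unadjusted P = 0.403) and was not called.

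The chemokine CXCL8, which attracts neutrophils, was at 11.9 and 8.64 CPM in shNC and 77.8 and 192 CPM in shNC_ATRA, against 27.1 and 31.9 CPM in shKDM3B and 21.7 and 82.2 CPM in shKDM3B_ATRA. It was higher in the knockdown before ATRA, whereas with ATRA the knockdown and control libraries overlapped. The difference was -2.90 ± 0.90 (unadjusted P = 0.0137), -2.40 and -3.71 with the shNC_ATRA libraries alone, and it was not called without shNC replicate 2. HBEGF, a growth factor of the EGF family, was likewise higher in the knockdown before ATRA, with closer replicates. Its levels were 7.03 and 5.79 CPM in shNC, 100.3 and 112 CPM in shNC_ATRA, 9.97 and 13.7 CPM in shKDM3B and 54.6 and 59.3 CPM in shKDM3B_ATRA. No groups overlapped, and the difference was -1.79 ± 0.28 (unadjusted P = 0.000301).

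CCL2, a monocyte chemoattractant, moved the other way. It was at 62.4 and 15.02 CPM in shNC and 0.257 and 1.38 CPM in shKDM3B, and at 472 and 709.8 CPM in shNC_ATRA and 57.3 and 179 CPM in shKDM3B_ATRA. The knockdown libraries were lower in both states, and the larger fold change of 7.03 against 3.94 started from 1.38 CPM or less. The difference of 3.09 ± 1.24 (unadjusted P = 0.0401) was not called without shNC replicate 1, shKDM3B replicate 1 or shKDM3B_ATRA replicate 2. Of the 11 chemokine and cytokine genes tested, 1 was called higher and 2 lower, against 1.27% and 2.72% of all genes, with a median of -0.90 and 9 negative differences. IL1B, an inflammatory cytokine, had a difference of -0.90 ± 0.79 and CCL20, a chemokine for dendritic cells and lymphocytes, one of -1.34 ± 1.01, neither called.

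Among receptors, CXCR4 and C5AR1 had blunted rises. CXCR4, the receptor that retains myeloid cells in the marrow, stood at 43.6 and 38.8 CPM in shNC, 43.7 and 47.1 CPM in shKDM3B, 105 and 157 CPM in shNC_ATRA and 38.3 and 58.2 CPM in shKDM3B_ATRA. In the knockdown the treated libraries overlapped the untreated ones, and the difference was -1.58 ± 0.36 (unadjusted P = 0.00302). C5AR1, the receptor of complement C5a, rose from 3.46 and 2.601 to 12.3 and 13.7 CPM in shNC cells and went from 3.29 and 3.47 to 2.21 and 6.73 CPM in shKDM3B cells, a difference of -1.69 ± 0.69 (unadjusted P = 0.0422). C5AR1 was not called without either shNC library, either shKDM3B library or shKDM3B_ATRA replicate 1, nor with the replicate number as a block.

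GPR84, a receptor for medium-chain fatty acids, moved in opposite directions. It was at 3.92 and 6.38 CPM in shNC and 9.44 and 16.1 CPM in shNC_ATRA, but at 9.35 and 16.2 CPM in shKDM3B and 3.37 and 7.64 CPM in shKDM3B_ATRA. Within each kind of cell the treated and untreated libraries did not overlap. The difference was -2.52 ± 0.72 (unadjusted P = 0.00951). ICAM1, an adhesion receptor, rose to 197 and 161 CPM in shNC_ATRA and 74.8 and 134 CPM in shKDM3B_ATRA, and its difference of -1.04 ± 0.47 (unadjusted P = 0.0605) was not called. ICAM1 was called with the replicate number as a block. Over the 21 receptor genes tested, 1 was called higher and 2 lower, against 1.27% and 2.72% of all genes, and the median was -0.17. TLR4, the lipopolysaccharide receptor, was the one called higher. It was lower in shKDM3B, 6.73 and 8.499 CPM against 15.8 and 18 CPM in shNC, and closer to the control level with ATRA, 20.01 and 20.4 CPM against 25.01 and 22.8 CPM, a difference of 0.90 ± 0.28 (unadjusted P = 0.0137), not called without shNC replicate 2 or shKDM3B replicate 1.

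CEBPB, a C/EBP transcription factor induced by ATRA in APL cells, rose to a lower level. Its values were 16.7 and 16.9 CPM in shNC, 183 and 118 CPM in shNC_ATRA, 11.5 and 11.7 CPM in shKDM3B and 44.1 and 46.5 CPM in shKDM3B_ATRA. The knockdown lay below the control in both states, and further below with ATRA. The difference was -1.20 ± 0.30 (unadjusted P = 0.00467), and -1.48 and -0.85 with the shNC_ATRA libraries alone. NFE2, a bZIP factor of the erythroid, megakaryocyte and granulocyte lineages, went from 42.4 and 48.04 to 54.9 and 53.6 CPM in shNC cells, a change that was not called. In shKDM3B cells it went down from 55.7 and 52.5 to 32.2 and 35.9 CPM without overlap, a difference of -0.93 ± 0.20 (unadjusted P = 0.00199).

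RUNX3, a Runt-domain factor, showed the reverse, with 90.7 and 71.2 CPM in shNC, 60.98 and 53.8 CPM in shNC_ATRA, 55.02 and 68.5 CPM in shKDM3B and 79.5 and 89.6 CPM in shKDM3B_ATRA. Control libraries went down and knockdown libraries up, each without overlap, and the difference was 0.95 ± 0.26 (unadjusted P = 0.00801). Of 17 myeloid transcription factors tested, 2 were called higher and 3 lower, against 1.27% and 2.72% of all genes, with a median of -0.24. CEBPD, another C/EBP factor, had 32.8 and 68.1 CPM in shNC, 84.1 and 77.3 CPM in shNC_ATRA, 69.3 and 79.9 CPM in shKDM3B and 48.98 and 53.7 CPM in shKDM3B_ATRA, and its difference of -1.22 ± 0.44 (unadjusted P = 0.0262) was not called without shKDM3B replicate 2 or either shKDM3B_ATRA library. SPI1, which encodes PU.1, had a difference of -0.49 ± 0.39 and CEBPE, the factor of late granulocyte differentiation, one of -0.52 ± 0.30. Neither was called, and with shNC_ATRA replicate 1 alone these values were -0.78 and -0.71, with replicate 2 alone -0.08 and -0.36.

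The immediate early genes, which code for AP-1 subunits, EGR factors and nuclear receptors of the NR4A family and respond quickly to growth signals, held 7 called genes. All 17 tested had a negative difference, 0 were called higher and 7 lower, where 2.72% of all genes were called lower. The median was -1.15, against -0.02 over all genes. The median was -1.39 with shNC_ATRA replicate 1 alone and -1.01 with replicate 2 alone. In the untreated cells the median shKDM3B minus shNC change of this list was 0.31 and with ATRA it was -1.35. The 7 genes called were EGR1, EGR3, FOSL2, JUN, JUND, IER2 and NR4A1.

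EGR1, a zinc finger factor linked to monocytic differentiation, was at 1.76 and 2.81 CPM in shNC, 3.98 and 7.38 CPM in shNC_ATRA, 6.42 and 9.603 CPM in shKDM3B and 2.21 and 2.21 CPM in shKDM3B_ATRA. It rose in the controls and fell in the knockdown without overlap, with a difference of -3.16 ± 0.61 (unadjusted P = 0.001201). JUN, an AP-1 subunit, fell in both kinds of cells. It went from 9.39 and 7.93 to 3.86 and 3.04 CPM in shNC cells and from 9.81 and 8.99 to 0.737 and 1.105 CPM in shKDM3B cells, a difference of -2.02 ± 0.45 (unadjusted P = 0.00249). The untreated levels of JUN overlapped and the treated ones did not.

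FOSL2, another AP-1 subunit, was at 21.4 and 32.3 CPM in shNC and 25.4 and 22.2 CPM in shNC_ATRA, with overlap, and fell in shKDM3B cells from 31.8 and 34.7 to 7.69 and 10.7 CPM. Its difference was -1.69 ± 0.36 (unadjusted P = 0.00197). NR4A1, an orphan nuclear receptor, went from 2.91 and 4.07 to 4.11 and 5.81 CPM in shNC cells and from 2.11 and 4.45 to 0.948 and 1.005 CPM in shKDM3B cells, a difference of -2.25 ± 0.65 (unadjusted P = 0.0104). With the shNC_ATRA libraries alone the difference was -2.59 and -3.46 in EGR1 and -2.09 and -1.75 in JUN. The calls of EGR1, JUN, FOSL2 and NR4A1 remained when any single library was left out. EGR3 was not called without shNC replicate 2 or shKDM3B replicate 1. JUND was not called without shNC replicate 1, shKDM3B replicate 2, shNC_ATRA replicate 1 or either shKDM3B_ATRA library, and IER2 without shNC replicate 1, shKDM3B replicate 2 or shKDM3B_ATRA replicate 1. JUND was also not called with the replicate number as a block. JUNB, an AP-1 subunit that was not called, went from 63.2 and 61.1 to 77.5 and 48.05 CPM in shNC cells and from 32.98 and 64.2 to 21.9 and 25.2 CPM in shKDM3B cells, with -1.06 ± 0.48. ZFP36, which destabilizes cytokine transcripts, had -0.94 ± 0.47, and MCL1, a survival factor of the BCL2 family, -0.44 ± 0.20, neither called.

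DUSP5, a phosphatase that inactivates ERK and is induced by it, rose from 1.66 and 1.59 to 20.2 and 25.3 CPM in shNC cells and from 2.93 and 2.15 to 8.43 and 10.8 CPM in shKDM3B cells. The difference was -1.87 ± 0.40 (unadjusted P = 0.00208). It was the 1 gene called of 11 MAPK feedback genes tested, where 3.99% of all genes were called, and DUSP6, a phosphatase of the same kind, had 0.21 ± 0.37 and SPRY2, an inhibitor of receptor tyrosine kinase signalling, -0.45 ± 0.30, neither called. The stress gene DDIT4, an inhibitor of mTORC1, went from 82.9 and 64.1 to 106 and 113 CPM in shNC cells and from 98.3 and 70.5 to 58.8 and 60.6 CPM in shKDM3B cells, a difference of -1.07 ± 0.29 (unadjusted P = 0.00677). It was the 1 gene called among 13 ATF4 and amino acid stress genes, where 3.99% of all genes were.

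**Figure D3:**
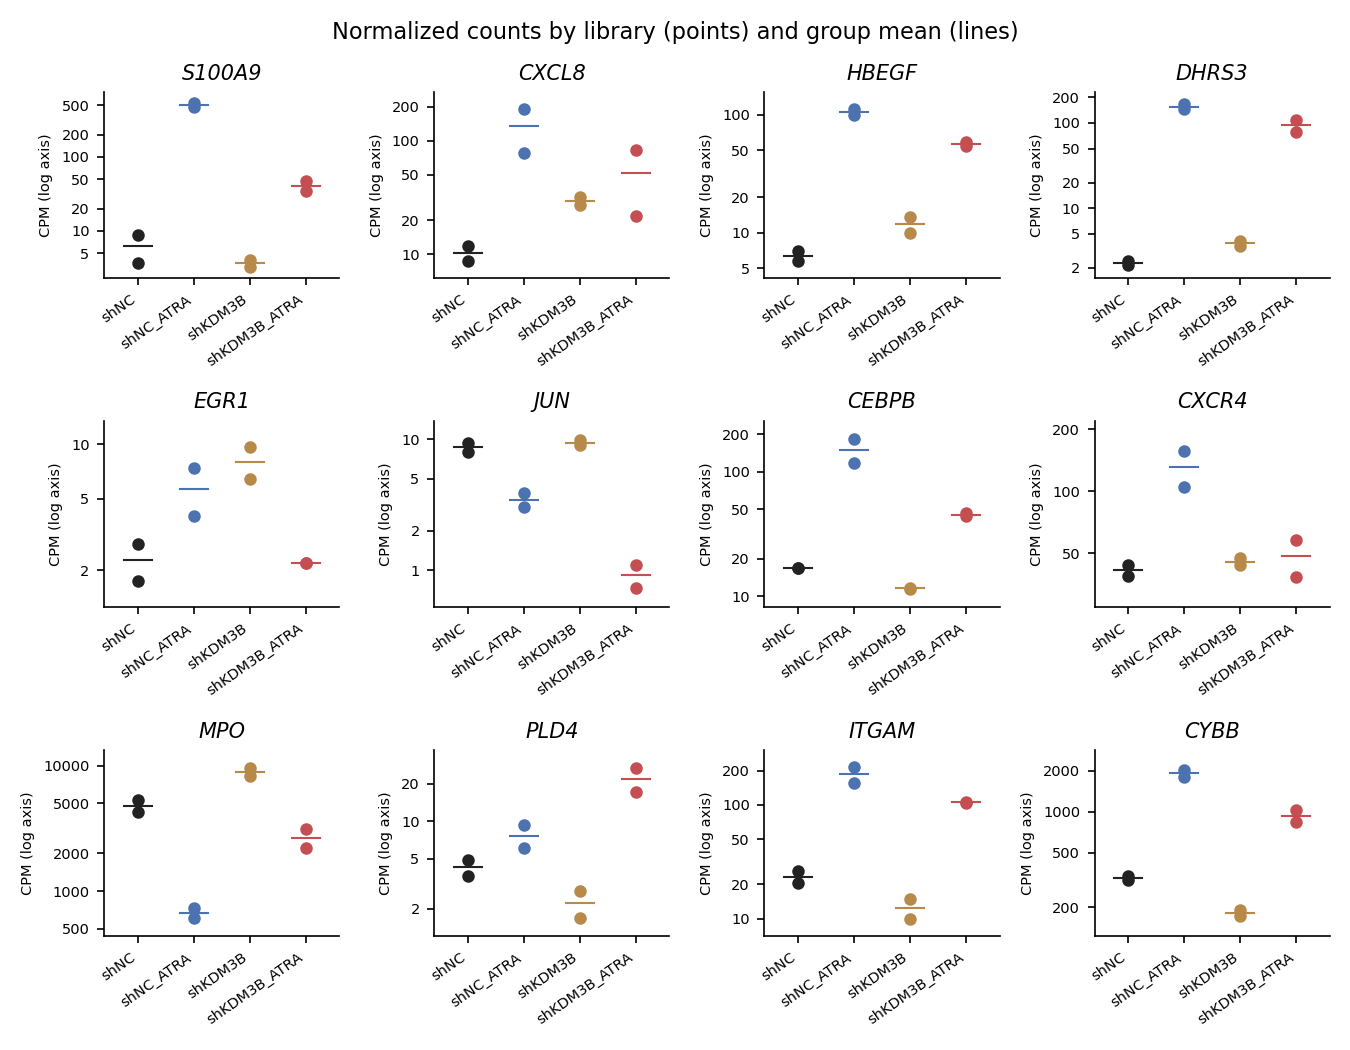
TMM-scaled CPM (log axis) of 12 genes in the 8 libraries (points) with the mean of each group (lines). S100A9 reaches 479.5 to 538 CPM in shNC_ATRA and 34.8 to 47.3 CPM in shKDM3B_ATRA, while ITGAM and CYBB rise by a like fold from a lower level.

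The start regions of 4 called genes are shown because they hold a site of a factor family named in these lists: CXCL8 and FOSL2 an AP-1 site (TGANTCA), JUND a cAMP response element (TGACGTCA), and TLR4 a PU.1 site (GAGGAAGT, here on the opposite strand). Each runs from 250 bases before to 50 bases after the RefSeq start on GRCh38.p14, read 5′ to 3′ along the gene, with the sites in capitals. CXCL8 lies on the plus strand at chr4:73740319-73740618, FOSL2 on the plus strand at chr2:28392608-28392907, JUND on the minus strand at chr19:18281573-18281872 and TLR4 on the plus strand at chr9:117704153-117704452. The first base of the site lies at -137 in CXCL8, at 5 in FOSL2, at -200 in JUND and at -173 and -101 in TLR4, counted from the start.

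CXCL8: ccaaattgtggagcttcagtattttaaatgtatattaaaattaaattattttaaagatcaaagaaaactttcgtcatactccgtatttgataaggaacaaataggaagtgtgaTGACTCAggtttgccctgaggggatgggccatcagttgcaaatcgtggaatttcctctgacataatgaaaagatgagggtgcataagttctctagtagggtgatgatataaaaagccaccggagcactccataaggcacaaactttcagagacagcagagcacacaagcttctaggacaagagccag

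FOSL2: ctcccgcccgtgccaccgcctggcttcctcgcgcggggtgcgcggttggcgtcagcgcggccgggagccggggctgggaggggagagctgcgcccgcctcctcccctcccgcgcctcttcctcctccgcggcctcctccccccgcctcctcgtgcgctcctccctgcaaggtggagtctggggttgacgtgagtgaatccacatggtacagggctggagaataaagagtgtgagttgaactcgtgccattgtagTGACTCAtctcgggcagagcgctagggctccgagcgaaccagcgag

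JUND: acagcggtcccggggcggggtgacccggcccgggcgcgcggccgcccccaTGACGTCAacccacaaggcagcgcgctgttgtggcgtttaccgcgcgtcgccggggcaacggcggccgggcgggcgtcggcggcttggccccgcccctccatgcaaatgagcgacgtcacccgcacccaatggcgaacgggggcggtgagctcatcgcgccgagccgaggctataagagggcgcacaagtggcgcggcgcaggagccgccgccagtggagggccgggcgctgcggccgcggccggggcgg

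TLR4: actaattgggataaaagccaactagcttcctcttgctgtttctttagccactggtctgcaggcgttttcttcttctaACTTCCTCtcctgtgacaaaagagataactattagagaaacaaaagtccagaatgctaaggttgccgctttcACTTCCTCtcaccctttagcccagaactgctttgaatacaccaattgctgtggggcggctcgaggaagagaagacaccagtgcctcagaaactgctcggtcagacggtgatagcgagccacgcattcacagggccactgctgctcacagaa

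Such matches were counted over the classes as a description, on both strands, and a base could belong to more than 1 motif. A RefSeq start region was found for 9786 of the genes tested. An AP-1 site was present in 4.64% of all these, 8.56% of blunted rises (22 of 257), 5.59% of kept rises (51 of 913) and 8.29% of enhanced rises (15 of 181). For the PU.1 site the shares were 2.72%, 5.84%, 5.04% and 5.52%, and for the single retinoid element AGGTCA they were 9.95%, 12.5%, 9.86% and 11.6%, in the same order. The cAMP response element was in 3.22% of all regions and in 2.33% of blunted rises. In blunted, kept and enhanced falls, in that order, the shares were 6.94%, 2.94% and 5.19% for the AP-1 site, 0.694%, 3.06% and 4.55% for the cAMP response element, 16%, 7.22% and 9.09% for AGGTCA and 2.78%, 2.2% and 0.649% for the PU.1 site. Of 13 immediate early genes with a region, 1 held the AP-1 site and 1 the cAMP response element. Over all 27305 start regions of the RefSeq table the AP-1 site was in 7.76%, the cAMP response element in 1.98%, AGGTCA in 13.9% and the PU.1 site in 2.54%.

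Among falls, that of MPO was blunted. Myeloperoxidase is the chief enzyme of the azurophil granules that promyelocytes make. MPO stood at 4284 and 5343 CPM in shNC and 729.6 and 616 CPM in shNC_ATRA, against 8339 and 9518 CPM in shKDM3B and 3128 and 2220.0 CPM in shKDM3B_ATRA. The knockdown libraries were higher in both states, and no groups overlapped. The fall was -2.84 ± 0.21 in shNC cells and -1.74 ± 0.20 in shKDM3B cells, a difference of 1.10 ± 0.28 (unadjusted P = 0.00524) that was 0.96 and 1.20 with the shNC_ATRA libraries taken alone.

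CTSG, the cathepsin of the same granules, went the other way. It fell from 105 and 115 to 4.11 and 2.31 CPM in shNC cells and from 149 and 127 to 2.001 and 1.71 CPM in shKDM3B cells, a difference of -1.15 ± 0.38 (unadjusted P = 0.0191), which was not called without shNC replicate 1, shKDM3B replicate 1, shNC_ATRA replicate 1 or shKDM3B_ATRA replicate 2. These were the 2 genes called of 10 azurophil genes tested, against 3.99% of all genes, and the median of the 10 was 0.12. BPI, a bactericidal protein, rose from at most 0.307 CPM to 57.6 and 55.9 CPM in shNC_ATRA and 37.5 and 37.5 CPM in shKDM3B_ATRA, and its difference of -0.72 ± 0.52 was not called. PPARG, a nuclear receptor of macrophage lipid metabolism, fell from 8.33 and 6.13 to 0.306 and 0.738 CPM in shNC cells and from 3.39 and 4.82 to 0.948 and 1.105 CPM in shKDM3B cells, and its difference was 1.83 ± 0.67 (unadjusted P = 0.0281), not called without shNC replicate 1, shKDM3B replicate 1, shNC_ATRA replicate 1 or either shKDM3B_ATRA library. MMP9, the gelatinase of tertiary granules, ended at 1.84 and 1.75 CPM in shNC_ATRA and 1.16 and 1.71 CPM in shKDM3B_ATRA. It started at 52.2 and 50.6 CPM in shNC and 17.8 and 25.6 CPM in shKDM3B, and the difference of 0.92 ± 0.39 (unadjusted P = 0.0474) was not called with DESeq2 or without either shNC library, shKDM3B replicate 1, either shNC_ATRA library or shKDM3B_ATRA replicate 2.

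ZBTB16, which encodes PLZF, a zinc finger factor of early progenitors, fell from 6.08 and 10.5 CPM in shNC and 18.1 and 19.02 CPM in shKDM3B to 0 and 0 counts in shNC_ATRA and 1 and 3 counts in shKDM3B_ATRA. With 3 or fewer counts in every treated library, no size can be given for its difference. INTS3, a subunit of the Integrator complex, went from 14.1 and 5.92 to 1.9 and 2.398 CPM in shNC cells and from 9.92 and 9.73 to 18.5 and 22.5 CPM in shKDM3B cells. It moved in opposite directions without overlap, with a difference of 3.29 ± 0.59 (unadjusted P = 0.000742). GTPBP6, a GTP-binding protein gene, had 12 and 20.1 CPM in shNC, 1.23 and 1.57 CPM in shNC_ATRA, 5.29 and 2.09 CPM in shKDM3B and 3.79 and 0.904 CPM in shKDM3B_ATRA, and the last pair overlapped both of its neighbours. Its copies on the sex chromosomes share reads, so its counts are uncertain, and its difference of 2.88 ± 1.001 (unadjusted P = 0.0229) was not called without shNC replicate 2, shKDM3B replicate 2 or shKDM3B_ATRA replicate 1. AC024560.3, a name after its clone, had 27.01 and 26.9 CPM in shNC, 0 and 0.184 CPM in shNC_ATRA, 29.03 and 25.7 CPM in shKDM3B and 0.527 and 0.502 CPM in shKDM3B_ATRA, and with so few counts in 1 group no size is given.

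Some of the largest differences lay outside the gene lists. YWHAE, an adaptor that binds phosphorylated proteins, had the smallest P-value of the genes described. It was at 30.6 and 22.3 CPM in shNC, 91.7 and 76.3 CPM in shNC_ATRA, 78.8 and 44.9 CPM in shKDM3B and 18.1 and 15.98 CPM in shKDM3B_ATRA, rising in the controls and falling in the knockdown without overlap. The difference was -3.52 ± 0.42 (unadjusted P = 5.59e-05, edgeR quasi-likelihood adjusted p = 0.757). FRG1, which has near-identical copies elsewhere in the genome so that its counts are uncertain, went from 0.904 and 0.797 to 17.7 and 2.03 CPM in shNC cells and from 19.4 and 8.04 to 1.26 and 1.61 CPM in shKDM3B cells, a difference of -6.79 ± 1.36 (unadjusted P = 0.00147). With shNC_ATRA replicate 2 alone it was -4.19, with replicate 1 alone -7.25. ORM1, the acute-phase protein orosomucoid, rose to 13.97 and 9.498 CPM in shNC_ATRA and to 1.48 and 1.81 CPM in shKDM3B_ATRA from at most 0.460 CPM in the untreated libraries. Its difference of -2.45 ± 0.99 (unadjusted P = 0.0413) was not called without either shNC library, shKDM3B replicate 2 or either shKDM3B_ATRA library, nor with the replicate number as a block.

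Enhanced rises tended to start lower in the knockdown, with a median shKDM3B minus shNC change of -0.66 before ATRA. FGR, a Src-family kinase of myeloid cells, was at 3.26 and 1.804 CPM in shNC and 0.462 and 0.4602 CPM in shKDM3B, and at 554 and 437 CPM in shNC_ATRA and 198 and 252 CPM in shKDM3B_ATRA. The knockdown was lower in both states, yet the fold rise was larger, with a difference of 1.29 ± 0.45 (unadjusted P = 0.0243), not called without shNC replicate 1, either shKDM3B library or shKDM3B_ATRA replicate 2. SKIL, a repressor of TGF-beta signalling, rose from 5.96 and 5.58 to 45.1 and 49.1 CPM in shKDM3B cells and went from 43.98 and 14.7 to 48.2 and 77.9 CPM in shNC cells, whose untreated libraries lay far apart. Its difference was 1.92 ± 0.67 (unadjusted P = 0.0232), not called without shNC replicate 1, either shKDM3B library or shKDM3B_ATRA replicate 2.

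RARRES3, a retinoid-induced phospholipase, had 0 and 1 counts in shKDM3B and 8 and 12 in shNC, and rose to 7.48 and 10.8 CPM in shKDM3B_ATRA and 19 and 25.9 CPM in shNC_ATRA. ARL14EPL, a gene related to the ARL14 effector, had 0 and 1 counts in shKDM3B and 5 and 6 in shNC, and reached 20.4 and 22.4 CPM and 28.2 and 26.01 CPM. Both were called, but the untreated knockdown libraries held at most 1 count each, so the size of the difference is not given. CRISP3, a protein of the specific granules, had 0 counts in all untreated libraries. With ATRA it stood at 9.81 and 14.6 CPM in shNC cells and 112 and 88.4 CPM in shKDM3B cells, where both knockdown libraries were the higher ones.

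Among falls that went further in the knockdown, FAM129B, a gene of cell survival signalling, went from 11.6 and 13.8 to 3.74 and 3.23 CPM in shNC cells and from 13 and 21.2 to 0.737 and 0.402 CPM in shKDM3B cells. The treated groups did not overlap, and the difference was -3.04 ± 0.54 (unadjusted P = 0.000685). TERT, the catalytic subunit of telomerase, fell from 5.87 and 11.4 to 0.797 and 0.277 CPM in shNC cells and from 13.3 and 18.3 CPM to 0 and 2 counts in shKDM3B cells. CELSR1, a planar polarity cadherin, fell from 3.87 and 6.25 to 0.123 and 1.199 CPM and from 12.3 and 18.01 CPM to 2 and 1 counts. Both were called with no more than 3 counts in each shKDM3B_ATRA library, and no size is given. KDM4B, a demethylase of trimethylated lysine 9 of histone H3, fell from 42.5 and 54.4 to 35.1 and 24.7 CPM in shNC cells and from 52.04 and 65.9 to 17.9 and 19.1 CPM in shKDM3B cells, with a difference of -0.98 ± 0.32 (unadjusted P = 0.0174), not called without shNC replicate 1, shKDM3B replicate 2 or shKDM3B_ATRA replicate 1.

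KDM7A, which removes dimethyl marks from lysines 9 and 27 of histone H3, had its difference in the untreated cells. It stood at 3.01 and 5.203 CPM in shNC, 12.02 and 16.7 CPM in shKDM3B, 5.03 and 3.41 CPM in shNC_ATRA and 3.37 and 4.02 CPM in shKDM3B_ATRA. Only the untreated knockdown libraries were high, and the difference was -1.999 ± 0.54 (unadjusted P = 0.00697). Of the 13 genes of the KDM3 family and other enzymes of this mark that were tested, 0 were called higher and 2 lower, against 1.27% and 2.72% of all genes, with a median of -0.33. JMJD1C, a paralog of KDM3B, had a difference of 0.22 ± 0.31, and SETDB1, which methylates the same lysine, -0.13 ± 0.27.

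The gained responses included PLD4, a lysosomal exonuclease of myeloid cells. PLD4 was at 3.67 and 4.91 CPM in shNC, 6.07 and 9.31 CPM in shNC_ATRA, 1.695 and 2.76 CPM in shKDM3B and 26.5 and 17.1 CPM in shKDM3B_ATRA. The knockdown was lower before ATRA and higher with it, each without overlap, and the difference was 2.44 ± 0.55 (unadjusted P = 0.00275). DSE, an epimerase of dermatan sulfate synthesis, rose from 2.11 and 1.75 to 11.6 and 11.9 CPM in shKDM3B cells, against 4.82 and 2.39 and then 2.02 and 6.92 CPM in shNC cells, a difference of 2.31 ± 0.83 (unadjusted P = 0.0269), not called without shNC replicate 1, either shKDM3B library or either shKDM3B_ATRA library. The histone gene HIST1H2AC had 82.6 and 3.32 CPM in shKDM3B_ATRA and at most 2.49 CPM in the other groups, so its difference of 4.37 ± 1.75 rested on 1 library and was 0.70 without shKDM3B_ATRA replicate 1.

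Of the 445 gained falls 155 were called, where 2.72% of all genes were called lower. Since the class already needs a difference of at least 1.5-fold, nothing is read from that share. BRD2, a bromodomain protein that binds acetylated histones, went from 6.78 and 10.9 to 14.2 and 18.2 CPM in shNC cells and from 3.13 and 11.6 to 2.32 and 1.41 CPM in shKDM3B cells. The untreated knockdown libraries were far apart, and the difference was -2.85 ± 0.87 (unadjusted P = 0.0128), not called without shKDM3B_ATRA replicate 2. BFAR, an apoptosis regulator, had 1.103 and 11.3 CPM in the 2 shNC_ATRA libraries, and its difference was -1.21 with the first alone and -4.44 with the second. BFAR was not called without shNC replicate 1, shKDM3B replicate 1, shNC_ATRA replicate 2 or either shKDM3B_ATRA library. HRAS, a small GTPase, fell from 12.2 and 10.5 to 0.211 and 1.21 CPM in shKDM3B cells and went from 2.01 and 3.61 to 0.613 and 1.84 CPM in shNC cells, with a difference of -2.75 ± 1.06 (unadjusted P = 0.0345), not called without shNC replicate 1, either shKDM3B library, shNC_ATRA replicate 2 or shKDM3B_ATRA replicate 1. IFITM1, an antiviral membrane protein, went from 13.1 and 12.6 to 4.32 and 5.73 CPM in shKDM3B cells and from 14.5 and 18.4 to 16.8 and 11.7 CPM in shNC cells, a difference of -1.15 ± 0.39 (unadjusted P = 0.0209), the 1 call among 25 interferon-stimulated genes, near the 3.99% of all genes, which was not made without shNC replicate 1, either shKDM3B library or shKDM3B_ATRA replicate 1.

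The kept responses included ITGAM and 5 of the 6 NADPH oxidase genes. ITGAM encodes CD11b, the differentiation marker that the study measured. It rose from 20.5 and 26.1 to 216 and 154 CPM in shNC cells and from 9.86 and 14.9 to 104 and 106 CPM in shKDM3B cells. The knockdown libraries were below the control libraries in both states, while the responses were 2.99 ± 0.27 and 3.08 ± 0.27. The difference was 0.09 ± 0.35 (unadjusted P = 0.815), with an interval of 2 SE from -0.62 to 0.79. Its sign depended on the library, with -0.12 for shNC_ATRA replicate 1 alone and 0.37 for replicate 2 alone. The shKDM3B minus shNC change was -0.91 without and -0.82 with ATRA, so the level was lower in both states while the fold responses differed by less than their error.

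The NADPH oxidase, which makes the superoxide of the respiratory burst, had lower median levels in the knockdown. Of its 6 genes tested all 6 rose in shNC cells, 5 were kept and 1, NCF4, was blunted, and 0 were called in either direction, where 3.99% of all genes were. The median shKDM3B minus shNC change was -0.61 without and -0.997 with ATRA, and the difference in response was negative in 5 of 6, with a median of -0.23. CYBB, the catalytic subunit, was at 338 and 315 CPM in shNC, 192 and 172 CPM in shKDM3B, 1811 and 2023 CPM in shNC_ATRA and 842 and 1032 CPM in shKDM3B_ATRA. Its difference was -0.19 ± 0.21, with an interval of 2 SE from -0.60 to 0.22. NCF1, the organizing subunit, whose near-identical pseudogenes make its counts uncertain, rose to 1132 and 747 CPM in shNC cells and 359.5 and 465 CPM in shKDM3B cells, with a difference of -0.03 ± 0.46. CYBA, the partner of CYBB in the membrane, had -0.47 ± 0.27 and RAC2, the GTPase of the complex, -0.27 ± 0.24.

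Other kept rises were those of ITGB2, the partner of CD11b, with -0.02 ± 0.28, and of CD38, an ectoenzyme induced by retinoids, with -0.30 ± 0.22. CSF3R, the receptor of G-CSF, lay at the edge of the class with -0.54 ± 0.19 (unadjusted P = 0.0256), under 1.5-fold. PADI4, which citrullinates histones in neutrophils, had -0.15 ± 0.50, and SERPINB1, an inhibitor of neutrophil elastase, -0.10 ± 0.30. ALOX5AP, the activating protein of 5-lipoxygenase, was classed as enhanced without being called, 0.63 ± 0.38.

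Among kept falls were MYC, with 452 and 614 CPM in shNC, 264 and 313 CPM in shNC_ATRA, 766 and 912 CPM in shKDM3B and 375 and 346 CPM in shKDM3B_ATRA. The knockdown was higher in both states, and the difference was -0.33 ± 0.26. MYB, a factor of progenitor proliferation, had 0.20 ± 0.36. Of 22 genes of MYC and ribosome biogenesis, 1 was called, near the 3.99% of all genes: MXD1, an antagonist of MYC. MXD1 reached 46.5 and 48.9 CPM in shNC_ATRA and 47.6 and 44.4 CPM in shKDM3B_ATRA from 18.98 and 21.4 CPM in shNC and 30.98 and 29.6 CPM in shKDM3B, a difference of -0.64 ± 0.19 (unadjusted P = 0.0132), not called with library size alone or without shNC replicate 1 or shKDM3B_ATRA replicate 2.

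Some names classed as kept had no counts in one state, and for these a change in expression and one in the counted annotation cannot be told apart. AP000439.3, a name after its clone, had 0 counts in all untreated libraries and 25.8 to 29.9 CPM in all treated ones, whereas AC016734.2, AC005154.6 and AC113404.1 had 0 counts in all treated libraries and 7.55 to 30.9 CPM in the untreated ones. FAM166A and VIL1, the gene of the actin-bundling protein villin, were at 0.123 CPM in shNC_ATRA replicate 1, but FAM166A stood at 32.9 CPM in shNC_ATRA replicate 2 and 24.3 and 23.4 CPM in shKDM3B_ATRA, and VIL1 at 30.3 CPM and 28.5 and 30.4 CPM. The untreated libraries held at most 2 counts of either gene, so no size of their difference is given, and their place among the kept rises rests on shNC_ATRA replicate 2. In VIL1, 44.2% of the exon length is overlapped by exons on the opposite strand.

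Of 27 DNA replication genes and 24 mitosis genes, the edgeR test called 0 in either direction, 0 had an unadjusted P under 0.05 at any size, against 3.99% and 4.49% of all genes, with medians of 0.02 and -0.01, and their differences with the 2 shNC_ATRA libraries taken alone stayed between -0.02 and 0.11 in the median. MKI67, the proliferation marker, was at 1475 and 524 CPM in the 2 shNC_ATRA libraries and 836 and 737 CPM in shKDM3B_ATRA, with a difference of -0.47 ± 0.57. The 13 mitochondrially encoded genes had 0 called, where 3.99% of all genes were, and a median of 0.14.

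The median of the 15 cholesterol synthesis genes was -0.32 and 14 of them were negative, with 0 called against 3.99% of all genes. With shNC_ATRA replicate 1 alone that median was 0.07 and with replicate 2 alone -0.83, so the sign of the list depended on the library. INSIG1, the sterol sensor that retains SREBP in the endoplasmic reticulum, had 25.4 and 106 CPM in shNC, 118 and 334 CPM in shNC_ATRA, 278 and 287 CPM in shKDM3B and 339 and 373 CPM in shKDM3B_ATRA, and both control groups were widely spread. The interferon-stimulated genes likewise had a median of 0.25, with 0.21 and -0.26 for the libraries taken alone.

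The 29 genes of the study's signature, which was chosen on these samples and so is not independent evidence of a direction, had a median difference of 0.40, with 25 positive, 4 called higher and 1 lower, against 1.27% and 2.72% of all genes. The median shKDM3B minus shNC change of this list was -0.81 without and -0.55 with ATRA. Those called were FGR, SKIL, MMP9 and PPARG on the higher side and, on the lower side, PLEKHO1, an adaptor of actin signalling, with -0.88 ± 0.30 (unadjusted P = 0.0208), not called without shNC replicate 2, shKDM3B replicate 2, shNC_ATRA replicate 1 or shKDM3B_ATRA replicate 1. PLEKHO1 rose from 12 and 9.69 to 48.4 and 39.8 CPM in shNC cells and from 6.53 and 7.58 to 14.1 and 17.1 CPM in shKDM3B cells. TMEM173, which encodes the sensor adaptor STING, had 0.44 ± 0.21 and was not called.

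Each difference is the shKDM3B minus shNC change with ATRA less that without ATRA, and the classes differed in which of these was larger. Among blunted rises the median change was 0.16 without and -0.92 with ATRA, and the treated change was the larger in 72.3%. Blunted falls had -0.20 and 0.98, and 73.9%. Enhanced falls had 0.16 and -0.83, and 76.2%, and gained falls 0.13 and -0.86, and 80.2%. Enhanced rises stood apart with -0.66 and 0.55, and the treated change was the larger in 45.8%. Over all genes tested that share was 63.3%. Among the 368 genes called lower, the treated change was the larger in 300, and among the 172 called higher in 104. It was the larger in 9 of the 43 enhanced rises that were called.

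**Figure D4:**
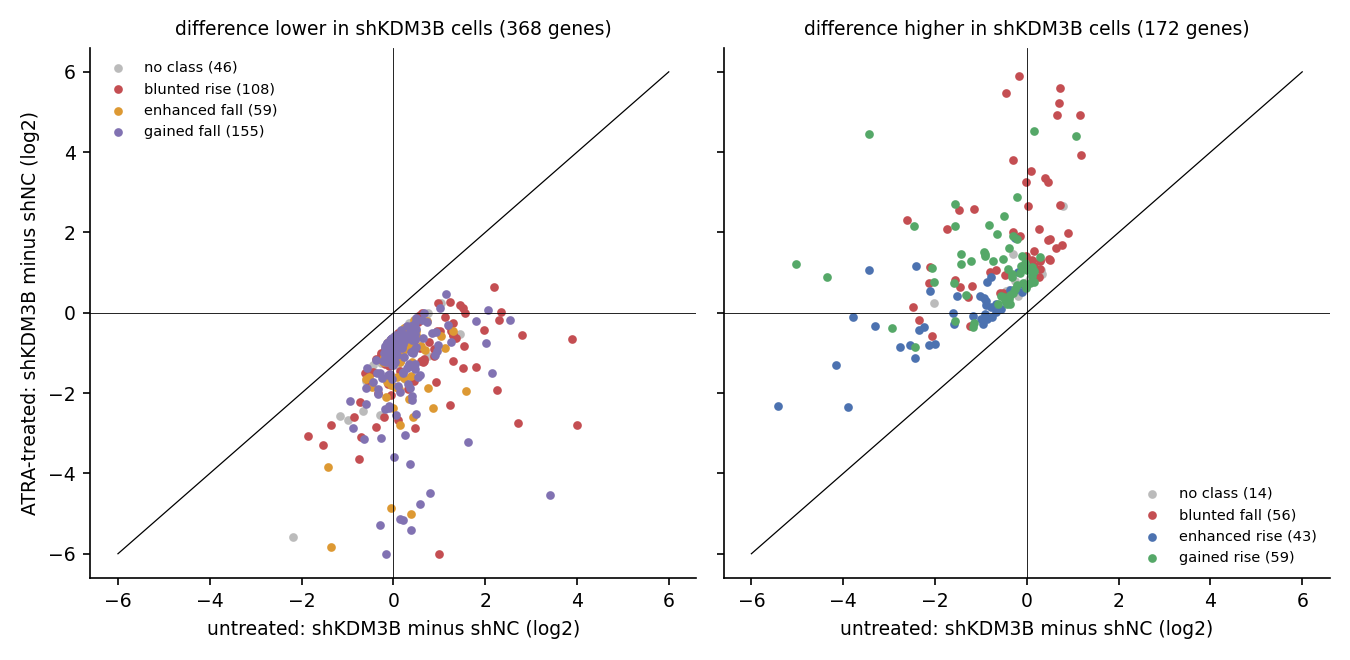
Log2 shKDM3B minus shNC change with ATRA (vertical) against that without ATRA (horizontal) for the genes called lower (left) and higher (right), coloured by class, with values beyond ±6 drawn at the edge and the line of no difference in response in black. Points on the left panel gather below 0 on the vertical axis and near 0 on the horizontal one, and enhanced rises on the right panel lie mostly to the left of 0.

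The classes also differed in how often a gene's exons are overlapped by exons on the opposite strand, and since the strand setting of the counting is not given in the sources used here, reads from a gene and its antisense partner cannot be told apart. An overlap was present in 44.2% of the annotated genes tested, 35% of blunted rises, 47.9% of kept rises, 61.9% of enhanced rises, 80.0% of unresolved rises and 63.5% of gained rises. It was present in 31.3% of blunted falls and 26.2% of enhanced falls. In the 1122 genes with more than 20% of exon length overlapped, the standard deviation of the response was 0.936 in shNC_ATRA replicate 1 and 2.58, 2.66 and 2.65 in shNC_ATRA replicate 2 and the 2 shKDM3B_ATRA libraries. In the 7093 genes with none these values were 1.16, 1.37, 1.33 and 1.35. Across the 1122 genes the shKDM3B response correlated at Pearson r of 0.275 with shNC_ATRA replicate 1 and 0.971 with replicate 2. Across the 7093 genes these were 0.746 and 0.882. Of the latter 320 (4.51%) were called, and of the 1122 genes 34 (3.03%). The part of this overlap in the enhanced and gained rises was not tested. S100A9, S100A8, CXCL8, HBEGF, DHRS3, CYP26A1, EGR1, JUN, FOSL2, MPO and ITGAM have no exon overlapped on the opposite strand, and 12.6% of the exon length is overlapped in CEBPB. Among the other genes described, the share was 52.2% in IER2, one of the called immediate early genes, 28.6% in DUSP6, 25.4% in ICAM1, 21.4% in RARA, 18.4% in MMP9, 17.2% in PLD4, 14.2% in JUNB, 12.9% in SETDB1, 10.6% in IFITM1 and 10.3% in NR4A1.

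Choosing responders from one shNC_ATRA library and reading the control response in the other gave a control response from a library that had no part in the choice, although the shNC libraries served in both. Chosen in shNC_ATRA replicate 1 and read in replicate 2, 1729 rises had a median response of 1.33 in shNC cells and 1.14 in shKDM3B cells, and the median of the differences was -0.12. The 1557 falls had -1.20 and -1.16, with 0.02. Chosen in replicate 2 and read in replicate 1, 2987 rises had 0.56 and 1.60, with 0.49, and 2465 falls had -0.57 and -0.95, with -0.38. The direction of the median thus turned with the library used, in rises and in falls. S100A9, HBEGF, DHRS3, CEBPB, CXCR4, DUSP5, EGR1, JUN, FOSL2, NR4A1 and MPO remained called when any 1 library was left out. Like all called genes they had one sign with each shNC_ATRA library, so that this sign is no further support. Each fit without 1 library left a group of 1 library, whose own spread could not be measured.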

How the data were processed

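RNA of NB4 cells was sequenced as read pairs in 8 libraries. Each deposited file holds whole-number counts of read pairs per gene name in 1 library, made by the authors. The submitters' processing notes name hg38, HISAT2, HTSeq, Picard, SAMtools and DESeq2, and the methods of the study Trim Galore. Versions and the strand setting of the counting are not given in the sources used here. The 5 summary lines at the end of each file were left out of library sizes and tests. Between 9708739 and 33017787 pairs per library lay on genes, which limits the precision of genes of low counts.

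Groups were taken from the sample labels. Names with enough counts by filterByExpr were fitted in edgeR 4.0.16 (R 4.3.3) with TMM scaling and 1 coefficient per group over all 8 libraries, and the quasi-likelihood F test was applied to the difference between the ATRA responses. P-values were adjusted by Benjamini-Hochberg over all 13528 genes. SE is the log2 difference divided by the square root of F. DESeq2 1.42.0, other scalings, filters and choices of responders, a replicate block and leaving out each library were alternatives. Genes with a group mean of at least 10 CPM, and genes without opposite-strand exons with shNC_ATRA replicate 2 only, were added after seeing the data. Steps were tested on simulated data.

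The genes named are KDM3B, ITGAM, the largest called differences of each class with a group mean of at least 10 CPM, the largest kept responses, called members of the lists, and up to 4 other members of highest CPM as examples. BPI, CRISP3 and other list members follow the last part of that rule. The comparison and the lists were chosen with earlier results of these data known. Where all libraries of a group held at most 3 counts of a gene, no size of its difference is given. GENCODE v44 matched 12721 of 13528 names, and start regions came from RefSeq (GRCh38.p14). Figures were drawn with matplotlib 3.10.9, and tables joined with pandas 2.3.3 and numpy 2.4.6 in Python 3.11.15. Some genes are not reported here.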

Additional observations from a re-analysis of the deposited data

Results flagged for a closer look

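In 12 of the genes described, the libraries of shNC cells and those of shKDM3B cells moved in opposite directions with ATRA without overlap between treated and untreated libraries, and the difference between the 2 responses was called by the edgeR interaction test. The differences were -6.79 for FRG1, -3.52 for YWHAE, -2.52 for GPR84, 3.29 for INTS3, -2.85 for BRD2, -1.22 for CEBPD, 0.95 for RUNX3, -0.93 for NFE2, -3.16 for EGR1, -1.11 for JUND, -2.25 for NR4A1 and -1.07 for DDIT4 on the log2 scale. Such moves occurred in 208 of the 13528 genes tested (1.54%) and in 72 of the 540 called genes (13.3%). Since an opposite move is itself a difference in response, a higher share among called genes follows from the rule. Nothing is read from that share. None of these differences passed an adjusted p of 0.05 in the edgeR quasi-likelihood test.

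The share of read pairs outside genes, which no comparison uses, was 50.02% in shNC_ATRA replicate 2, 51.45% in shKDM3B_ATRA replicate 1 and 51.05% in shKDM3B_ATRA replicate 2. It was 8.49% to 9.62% in the untreated control and knockdown libraries and 9.36% in shNC_ATRA replicate 1.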

How the results depend on the processing

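Among the values of 140 single genes under the alternatives, 2279 stayed on their side of the threshold, 186 fell below it and 50 rose above it. Turns of direction were counted only for the 56 called genes, and there were 0. The cause of the changes that follow was not tested, apart from smaller gene sets, which lower counts by construction. The called differences, higher in shKDM3B (172), and the called differences, lower in shKDM3B (368), became 366 and 575 with no low-count filter, 80 and 240 without genes with opposite-strand exons, and 0 and 0 at an adjusted p, and 109 higher with a group mean of at least 10 CPM and 244 lower with no such exons and shNC_ATRA replicate 2 only. Leaving out 1 library gave 121 to 1168 higher and 157 to 1264 lower calls, the upper values without shNC_ATRA replicate 2. The labels do not say that a replicate number pairs samples. The deviations of same-numbered samples correlated at 0.383 between shNC and shKDM3B and 0.190 between shKDM3B and shKDM3B_ATRA, and between -0.0920 and 0.0253 in the other 4 pairs of groups, so the numbers were not used as pairs. A replicate block gave 167 higher and 371 lower, with ORM1, CCL2, HIST1H2AC, C5AR1 and JUND no longer called and ICAM1, TRIB3 and ALOX5AP called. Without opposite-strand exons, blunted, kept and enhanced rises numbered 225, 594 and 96, and blunted and kept falls 136 and 617. A 2-fold limit gave 190 blunted and 174 enhanced rises and 139 and 106 such falls. Responders at an adjusted p gave 804 kept and 133 enhanced rises and 142 blunted, 684 kept and 138 enhanced falls. A mean of at least 10 CPM gave 185 blunted and 141 enhanced rises and 74 and 134 such falls. No opposite-strand exons with shNC_ATRA replicate 2 only gave 797 kept and 139 enhanced rises and 358 blunted and 118 enhanced falls. Enhanced rises were 504 with no filter, 816 with responders by the mean response, 170 when chosen in shNC_ATRA replicate 1 and read in replicate 2, and 1385 the other way round, and enhanced falls 548 by the mean response and 859 when chosen in replicate 2. Leaving out 1 library gave 279 to 686 blunted rises, 897 to 1934 kept rises, 136 to 475 enhanced rises, 221 to 566 blunted falls, 803 to 1750 kept falls and 139 to 271 enhanced falls. The median difference, rises, and the median difference, falls, were 0.26 and -0.25 by the mean response, 0.49 and -0.38 when chosen in replicate 2, and -0.21 and 0.21 without opposite-strand exons and with replicate 2 only. Leaving out 1 library gave medians of -0.271 to 0.0297 in rises and -0.0654 to 0.209 in falls.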
